A study of Homo sapiens with 6 samples.

Results

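The U2AF genes considered here were U2AF1, its near-identical copy U2AF1L5, the paralog U2AF1L4 and U2AF2. Every alternative splicing (AS) event filed under these 4 symbols was taken from the 5 rMATS tables of the study, which gave 41 of 78336 listed events. Of these, 39 had a mean of at least 10 junction reads over the 6 libraries and were tested, among 66396 tested events in all. The 39 events comprised 9 of U2AF1, 4 of U2AF1L5, 19 of U2AF1L4 and 7 of U2AF2. The tested event with the fewest reads had a mean of 11.2, and the 2 events left out, both of U2AF1L4, had 7.17 and 1.67. The genes were chosen by measured values: a retained intron of U2AF1L5 had stood out among the called events in earlier results of these data, and the split of reads between the copies was known.

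The data came from NCI-H1975, an established cell line of human lung adenocarcinoma. Control cells were transfected with the empty pcDNA3.1 plasmid and SAM68 cells with pcDNA3.1 carrying SAM68, an RNA-binding protein of the STAR family encoded by KHDRBS1, both at 2 µg per well for 48 h. Each group had 3 biological replicates, all from this single line and a transient transfection. The tables list the 3 libraries of a group side by side without replicate numbers, so libraries are named here by their position in the list, and no control library was paired with a SAM68 library. The labels do not name the order of the groups, which was taken from the study's plots. With this order, KHDRBS1 reads, scaled to 1000000 junction reads of 1 event per gene (rpm), were 311 to 329 in the control group and 1232 to 1277 in the SAM68 group (log2 fold change 1.98, SE 0.05, limma adjusted p = 1.08e-21). The libraries held 16951876 to 19737729 junction reads of skipped exon events. Of 5 epithelial markers, KRT8 and KRT18 had listed events with reads in every library, and of 3 lung epithelial markers NAPSA was the only one listed, at 0 to 5 reads per library. Of the leukocyte, endothelial and fibroblast markers none had a listed event. A junction table lists a gene only where it has an AS event, so an unlisted gene may still be expressed.

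U2AF is the dimer that marks the 3′ end of introns for the spliceosome. The large subunit, U2AF65 from U2AF2, binds the pyrimidine-rich tract upstream of the exon, and the small subunit, U2AF35 from U2AF1, reads the AG at the intron end. Both hold the site until the U2 snRNP settles on the branch point. U2AF1 is recurrently mutated in myeloid neoplasms and in lung adenocarcinoma. It carries a pair of mutually exclusive exons, here called exon 3a and exon 3b, of which the protein-coding transcript U2AF1-201 contains exon 3a and U2AF1-202 exon 3b, although GENCODE 44 also lists transcripts with both, such as U2AF1-205, which is subject to nonsense-mediated decay. U2AF1L4 encodes a related small subunit that can take the place of U2AF35.

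Exons 3a and 3b are both coding and 67 nt long, and they are printed because the largest differences of this report concern the choice between them. Exon 3a (chr21:43100453-43100519, GRCh38, minus strand) is exon 3 of the reference transcript U2AF1-201 in GENCODE 44, and exon 3b (chr21:43101366-43101432) lies between exons 2 and 3a. Capitals mark the 23 bases that differ between them.
exon 3a: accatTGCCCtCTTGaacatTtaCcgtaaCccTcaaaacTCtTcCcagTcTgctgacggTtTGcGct
exon 3b: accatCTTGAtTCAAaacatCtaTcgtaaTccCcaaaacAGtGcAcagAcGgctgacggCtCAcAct
The pair shares 65.7% of its bases, so that reads of the 2 exons can be told apart. The ends of the introns in front of them, where U2AF itself binds, are given next on the minus strand, exon 3a at chr21:43100517-43100544 and exon 3b at chr21:43101430-43101457, up to the first 3 bases of the exon, with the terminal AG in capitals.
3′ site of exon 3a: aaagttgttgcgttttgtatttcAGacc
3′ site of exon 3b: cctttttatttttttttccccgcAGacc
Of the 20 bases before the AG, 14 were pyrimidines in front of exon 3a and 18 in front of exon 3b.

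Unlike the exons, the copies are the same in most of their sequence. U2AF1 (ENSG00000160201.11) lies on the long arm of chromosome 21 (positions 43092956 to 43107570, minus strand). U2AF1L5 (ENSG00000275895.6) lies on the short arm (positions 6484623 to 6499248, minus strand). GENCODE 44 gives the latter locus the gene type artifact and the tag artifactual duplication, and lists U2AF1 as protein-coding. In the GRCh38 sequence the spans of 14615 and 14626 nt differed by 29 edits, an identity of 99.8%. Exons 2 to 8 and exon 3b, 892 nt in all, were identical base for base, and both 3′ sites printed above occurred once in U2AF1L5 without a difference. Exon 1 held 1 difference and the introns held 28, of which none lay within 130 nt of exons 2, 3a or 3b. The longest stretch of the gene without a difference measured 3971 nt and contained both forms of exon 3.

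**Figure D1:**
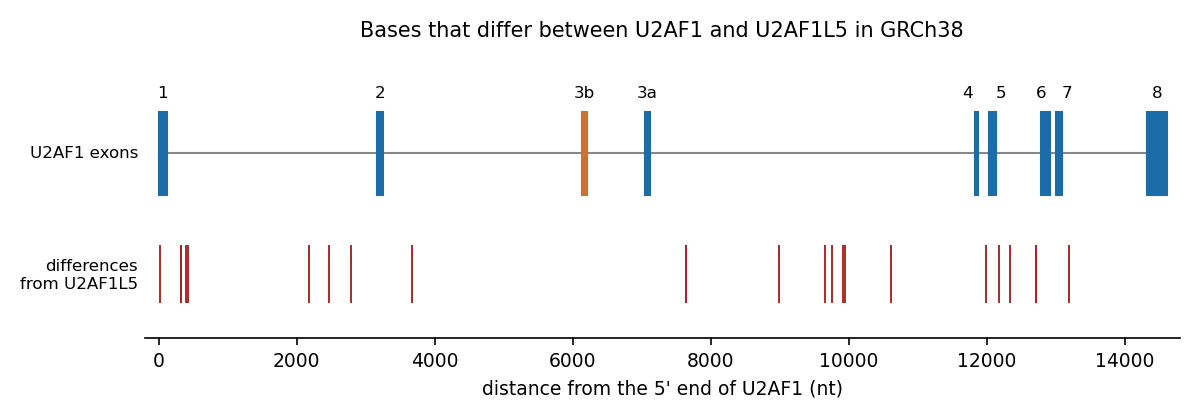
Bases that differ between U2AF1 and U2AF1L5, drawn by distance in nt from the 5′ end of U2AF1; boxes are exons (exon 3b in orange) and the vertical lines below are the 29 edits. Exons 2 to 8 and exon 3b carry no line, and none stands near exons 2, 3a and 3b.

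The reads of exons 3a and 3b were first compared between the copies, library by library. This mutually exclusive exon (MXE) event was listed for both copies with the same exon lengths and held the most reads of each. On U2AF1, the control libraries counted 506, 127 and 9 reads at list positions 1, 2 and 3, and the SAM68 libraries counted 1318, 2 and 1. On U2AF1L5, the control libraries counted 44, 22 and 44 reads, and the SAM68 libraries counted 21, 1811 and 1912. Control positions 1 and 2 and SAM68 position 1 were thus read mainly on U2AF1, and the other 3 libraries mainly on U2AF1L5.

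U2AF1L5 took 8.0% of the reads of both copies at control position 1 (95% Wilson interval 6.01 to 10.6%), 14.8% at position 2 (9.96 to 21.3%) and 83.0% at position 3 (70.8 to 90.8%). In the SAM68 group it took 1.57% at position 1 (1.03 to 2.39%), 99.9% at position 2 (99.6 to 99.97%) and 99.9% at position 3 (99.7 to 99.99%). These intervals describe counting error alone, as no molecular identifiers are described for these libraries. The group means were 35.3 ± 41.5% in the control and 67.1 ± 56.8% in the SAM68 group (SD, n = 3), and the groups overlapped. With 1 library left out, the control mean ran from 11.4% (without position 3) to 48.9%, and the SAM68 mean from 50.7 to 99.9% (without position 1). The difference was not tested, because the genes were chosen for it.

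The share of the copy also differed between the exon forms within a library. Of the exon 3a reads, U2AF1L5 held 78.6, 84.2 and 80.5% in the control libraries, but 2.66, 100 and 99.9% in the SAM68 libraries. Of the exon 3b reads, it held 0, 4.62 and 91.7% in the controls, against 0, 98.9 and 100% in the SAM68 libraries. Control positions 1 and 2 therefore filed exon 3b under U2AF1 and most of exon 3a under U2AF1L5. At control position 1, 494 of 506 reads on U2AF1 were exon 3b, and 0 of 44 reads on U2AF1L5 were, which allows a share of up to 6.82% there by the limit of 3 counts of 44, and of up to 8.03% by the Wilson interval.

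**Figure D2:**
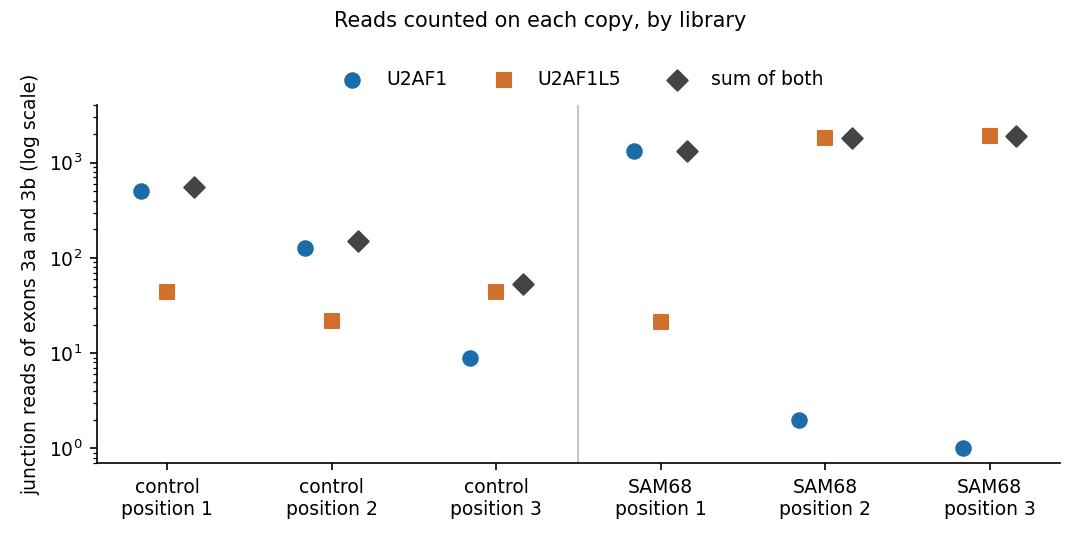
Junction reads of exons 3a and 3b on U2AF1 (circles), on U2AF1L5 (squares) and on both (diamonds) in each of the 6 libraries, on a log scale. U2AF1 ranges from 1 to 1318 reads and U2AF1L5 from 21 to 1912, while the sum runs from 53 to 550 in the control and from 1339 to 1913 in the SAM68 libraries.

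With the copies summed, the reads were higher in SAM68-overexpressing cells. The control libraries held 550, 149 and 53 reads, and the SAM68 libraries held 1339, 1813 and 1913. Every SAM68 library lay above every control library, as was the case for 6.03% of all genes in that direction. Scaled to depth these were 42.5 ± 46.0 rpm in the control and 299 ± 76.0 rpm in the SAM68 group (SD, n = 3). The log2 fold change was 3.39 (SE 0.39, limma on log2 of rpm plus 0.5), and it was 2.60 to 4.28 when any 1 library was left out. No test is given, since the genes were chosen from these reads and the spliced reads of the U2AF1L5 intron are part of the sum. These are reads at AS junctions of bulk RNA, in which the number of cells with a transcript and its amount per cell cannot be told apart. They include only reads the authors' pipeline counted at this event, and how many others matched both copies was not analysed here.

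The exon forms differed in how far they went with this change. Exon 3a, the canonical form, had 56, 19 and 41 reads over both copies in the controls, and 788, 1629 and 1461 reads in the SAM68 libraries. The groups did not overlap, with a ratio of the means of 33.4, which is a description only. These reads include the spliced reads of the U2AF1L5 intron, for which the genes were chosen. Among all genes, 6.03% had gene reads apart in that direction. Exon 3b had 494, 130 and 12 reads in the controls, against 551, 184 and 452 reads in the SAM68 libraries. Here the groups overlapped, with a ratio of the means of 1.87. The overlap rested on control position 1: without that library the groups were apart and the ratio was 5.57, while for exon 3a the ratio was 26.7 to 43.1 with any 1 library left out.

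Single junctions, which are part of the same reads, can also be read from the tables. The exon 2 to exon 3a junction had 40, 12 and 27 reads over both copies in the controls, against 688, 1226 and 1089 in the SAM68 libraries. The exon 3b to exon 4 junction had 303, 76 and 8 reads in the controls, against 331, 71 and 296 in the SAM68 libraries. The junction of exon 3a was higher in every SAM68 library, and the junction of exon 3b was not. On U2AF1L5 the former is the spliced form of the intron for which the genes were chosen.

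Taken by copy, the values scattered within each group, and the split between the copies is given without a test. For U2AF1 the values were 87.3, 20.2 and 1.51 rpm in the control and 208, 0.367 and 0.184 rpm in the SAM68 group, and the log2 fold change was -1.63 (SE 1.24). For U2AF1L5 they were 7.59, 3.50 and 7.37 rpm in the control and 3.32, 333 and 351 rpm in the SAM68 group, with a log2 fold change of 3.59 (SE 0.86). The group means of U2AF1 went the other way, at 36.4 rpm in the control and 69.6 rpm in the SAM68 group, since the mean is set by SAM68 position 1 and the log scale by the libraries near 0. Single libraries moved the U2AF1 value widely, to -0.37 without control position 1, -0.37 without SAM68 position 2, -0.20 without SAM68 position 3, -3.10 without control position 3 and -4.32 without SAM68 position 1, and with the reads of all its events summed it was -0.49. For U2AF1L5 the values ran from 2.49 (without SAM68 position 3) to 5.75 (without SAM68 position 1).

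**Figure D3:**
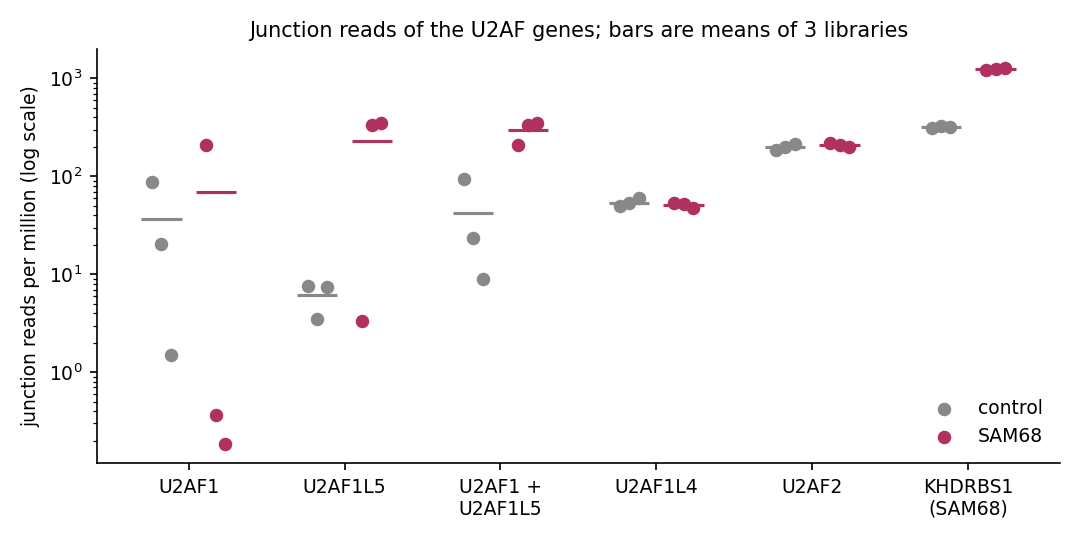
Junction reads in rpm on a log scale for the U2AF genes, for the sum of U2AF1 and U2AF1L5 and for KHDRBS1; points are libraries (control grey, SAM68 red) and bars the means of 3. U2AF2 and U2AF1L4 stay within narrow ranges, U2AF1 and U2AF1L5 scatter within each group, and their sum lies at 8.87 to 94.9 rpm in the control and 211 to 351 rpm in the SAM68 libraries.

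Percent spliced in (PSI) is the share of the inclusion form after division of the reads by the effective length of each form, and ∆PSI is the SAM68 mean minus the control mean in percentage points. Calls required a quasi-binomial model's adjusted p under 0.05 together with an absolute ∆PSI of 10 points or more. Of the 39 member events, 3 were called and all were lower in the SAM68 group, against 0.0256% of all tested events called in either direction. They were the MXE choice of exon 3b in U2AF1, the skipped exon (SE) event of exon 3b between exons 2 and 3a in U2AF1, and the retained intron (RI) between exons 2 and 3a in U2AF1L5. The choice of these genes used this contrast, and the events share junction reads, so the calls are a description and do not count as separate results. The groups overlapped in each of the 3 events. With each event's own dispersion none of the 39 was called (0.00301% of all events), nor did limma on logit-scaled PSI call any (0.00452%). The likelihood ratio test on pooled counts, which ignores the spread between libraries, called 4 of 39 (2.04% of all events), and 5 had an unadjusted p under 0.05 (3.68%).

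The exon 3b share of U2AF1 was 97.6, 97.6 and 11.1% in the controls, against 41.8, 100 and 0% in the SAM68 libraries. The last pair of SAM68 values rested on 2 reads and 1 read, with Wilson intervals of 34.2 to 100% and 0 to 79.3%. ∆PSI was -21.5 points, given without a p because the split of these reads between the copies was known when the genes were chosen (0.114% of MXE events called). The Pearson dispersion, the spread between libraries relative to counting error, was 49.0 for this event, against 2.35 shared by MXE events. Without SAM68 position 3 the sign turned, at 2.11 points, and the call was also lost without control position 1 (-7.11 points), control position 2 (-7.10 points) or SAM68 position 1 (-18.8 points).

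The SE event of exon 3b in U2AF1 showed the same libraries. PSI was 93.4, 97.4 and 7.66% in the control and 18.8, 100 and 0% in the SAM68 group, so that each group ran over most of the scale. ∆PSI was -26.5 points, again without a p (0.0105% of SE events called). The event was not called without control position 1, SAM68 position 1 or SAM68 position 3, where ∆PSI was -12.9, -16.1 and -6.76 points. With the copies summed, PSI was 77.9, 75.9 and 10.9% in the control and 18.7, 7.13 and 11.0% in the SAM68 group, and control position 3 again lay among the SAM68 libraries. That ∆PSI was -42.6 points, given without a p because the sum holds the spliced reads of the U2AF1L5 intron, and the call was lost without control position 1 (-31.2 points), with the event's own dispersion and in limma on logit-scaled PSI.

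On U2AF1L5 the exon 3b share was 0, 27.3 and 25.0% in the controls, against 0, 10.1 and 23.6% in the SAM68 libraries. These values overlapped and ∆PSI was -6.19 points, which was not called. No p is given here either, because the split of these reads between the copies was known when the genes were chosen. The SE event of exon 3b in U2AF1L5 lay at 0, 5.69 and 12.3% in the controls, from 30, 12 and 23 reads. In the SAM68 libraries it lay at 14.2, 7.04 and 11.0%, from 5, 1366 and 1290 reads. Its ∆PSI was 4.76 points, not called and given without a p for the same reason. The exon 3b share of 1 library therefore depended on the copy that was read: at control position 2 it was 97.6% on U2AF1 and 27.3% on U2AF1L5.

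Summing the copies gave 1 value for each library. The exon 3b share was 89.8% (Wilson interval 87.0 to 92.1%), 87.2% (80.9 to 91.7%) and 22.6% (13.5 to 35.5%) in the control libraries. It was 41.2% (38.5 to 43.8%), 10.1% (8.84 to 11.6%) and 23.6% (21.8 to 25.6%) in the SAM68 libraries. Control positions 1 and 2 stood above all SAM68 libraries, and control position 3, with 53 reads, lay among them. ∆PSI was -41.6 points, from 66.6 ± 38.1% to 25.0 ± 15.5% (SD, n = 3), again without a p. The call of the quasi-binomial model was lost without control position 1 (-30.0 points), with the event's own dispersion and in limma on logit-scaled PSI. With the copies summed, 0.0241% of all events were called. Control position 1 also had the most KRT8 reads, 3014 against 1251 to 1590 elsewhere, and the part of this in the result was not tested.

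**Figure D4:**
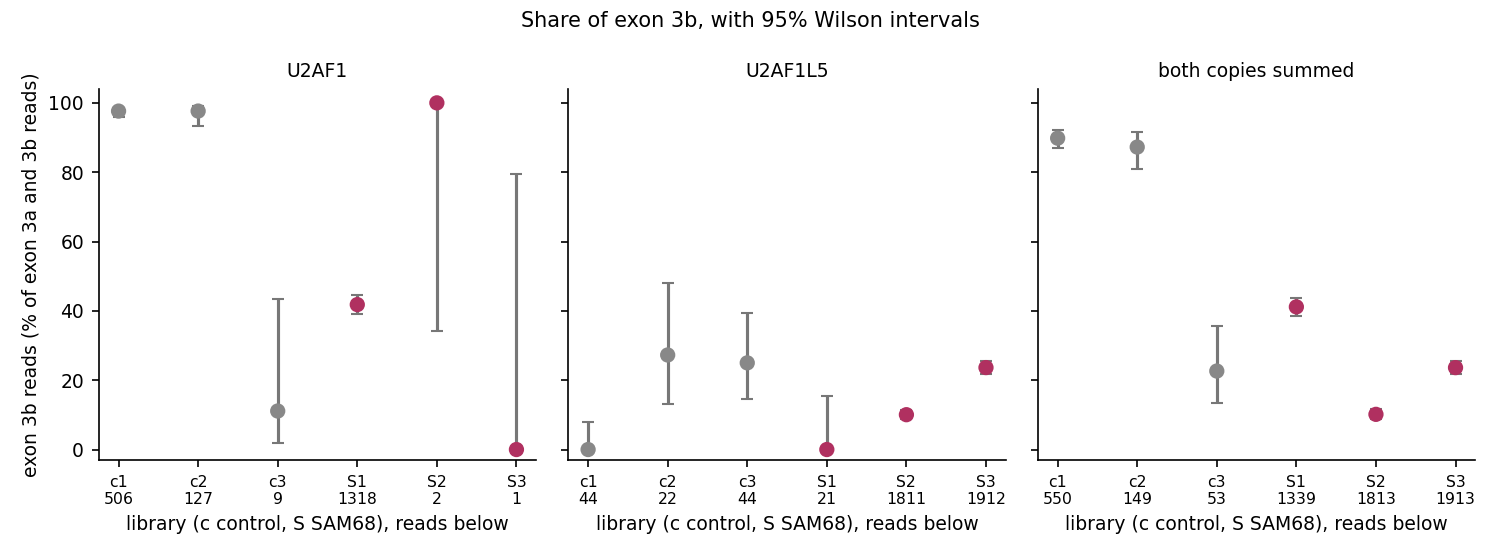
Exon 3b reads as a percentage of exon 3a and 3b reads on U2AF1, on U2AF1L5 and on both copies, in control (c, grey) and SAM68 (S, red) libraries by list position, with 95% Wilson intervals and the number of reads under each library. On the summed reads c1 and c2 lie at 89.8 and 87.2%, and the other 4 libraries between 10.1 and 41.2%.

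The retained intron of U2AF1L5 spans the 3795 nt between exons 2 and 3a and contains exon 3b. Its unspliced form had 18, 0 and 8 reads in the controls, against 0, 5 and 1 in the SAM68 libraries. Its spliced form, which is the exon 2 to exon 3a junction, had 30, 11 and 19 reads in the controls, against 4, 1226 and 1088 in the SAM68 libraries. The unspliced reads were few in both groups, and the larger difference between libraries was in the spliced reads. PSI was 23.1, 0 and 17.4% in the control and 0, 0.20 and 0.046% in the SAM68 group, a ∆PSI of -13.4 points. No p is given, since the genes were chosen for this event, which was the 1 RI event called of 2591 tested (0.0386%). Without control position 1 the call was lost, at -8.61 points.

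The same intron of U2AF1 had 1, 0 and 0 unspliced reads in the controls, against 6, 0 and 1 in the SAM68 libraries. Its spliced form had 10, 1 and 8 reads in the controls, against 684, 0 and 1 in the SAM68 libraries. SAM68 position 2 had no read of either form here, so ∆PSI (15.3 points, not called) rests on 2 SAM68 libraries, 1 of them with 2 reads. No p is given, since the split of these reads between the copies was known when the genes were chosen. With the copies summed, PSI was 19.2, 0 and 12.9% in the control and 0.434, 0.20 and 0.0917% in the SAM68 group (∆PSI -10.5 points, with no p for the same reason). Control position 2 had no unspliced read among 12, so the groups overlapped, and neither the fit with the event's own dispersion nor limma on logit-scaled PSI called it. ∆PSI was -6.21 points with control position 1 left out and -9.35 points with control position 3 left out, neither of them called.

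Away from exon 3, U2AF1 had events with no listed counterpart in U2AF1L5. At exon 5, a 99-nt coding exon, U2AF1 had 217, 32 and 11 reads in the controls, against 391, 26 and 1 in the SAM68 libraries. At the last intron, between exons 7 and 8, U2AF1 had 6, 3 and 6 reads in the controls, against 14, 98 and 3 in the SAM68 libraries. At exon 5 control position 1 and SAM68 position 1 were highest, as at exon 3, whereas SAM68 position 2, which had 2 reads at exon 3 of U2AF1, had 98 at the last intron. Neither event was called (∆PSI 5.02 points, adjusted p = 0.998, and 12.8 points, adjusted p = 0.995). The SE event of exon 3a between exons 3b and 4 was not called either by the quasi-binomial model, with a ∆PSI of 11.7 points on U2AF1L5. On U2AF1 ∆PSI was -19.6 points, position 1 was the only SAM68 library with reads, and the 100% of control position 3 was 1 read. Without that control ∆PSI was 12.2 points, and with the copies summed 25.7 points. This was the fourth event that the likelihood ratio test called. Skipping of the whole exon 3, from exon 2 to exon 4, had 2 reads at SAM68 position 1 of U2AF1 and 0 in the other libraries.

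U2AF2, the large subunit (ENSG00000063244.12, chromosome 19, positions 55654146 to 55674716, plus strand), had 536 to 1206 reads per event on average. No test called it in reads or in splicing. It overlaps noncoding RNA genes on both strands, and whether the counting used strand is not given in the sources used here. Its rpm were 186, 198 and 215 in the control and 220, 210 and 201 in the SAM68 group, with a log2 fold change of 0.08 (SE 0.07, limma adjusted p = 0.705). None of its 7 events was called by the quasi-binomial model, none had an unadjusted p under 0.05 and none was called by the other event tests. The absolute ∆PSI ran from 0.126 to 1.96 points, with a median of 0.268 against 1.24 over all tested events.

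The one balanced choice in U2AF2 was at the end of exon 10, a coding exon between exons 9 and 11. A downstream 5′ splice site adds 12 bases, which keep the reading frame, and gives the 99-nt exon of the reference transcript U2AF2-201 in place of the 87-nt exon of U2AF2-202. The stretch is printed from the shorter exon's last bases into the intron (chr19:55669150-55669187, GRCh38, plus strand), with the added bases in capitals.
exon 10 end: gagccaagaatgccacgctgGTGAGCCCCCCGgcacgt
The shorter exon ends before a GT and the longer before a GC. PSI of the longer form was 23.3, 20.9 and 21.5% in the controls, against 20.1, 17.9 and 21.7% in the SAM68 libraries. The groups overlapped, and ∆PSI was -1.96 points (adjusted p = 0.853) at 604 to 685 reads per library.

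Exons of U2AF2 that GENCODE places in transcripts subject to nonsense-mediated decay were rarely included. The 120-nt exon after exon 1 was included at 1.63 ± 0.335% in the control and 1.21 ± 0.594% in the SAM68 group, and the 64-nt exon after exon 5 at 0.382 ± 0.317% and 0.508 ± 0.449% (SD, n = 3). The coding exons 3, 4 and 10 were included at 98.5 to 100% in every library. The groups overlapped for each of these exons.

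U2AF1L4 (ENSG00000161265.14, chromosome 19, positions 35742464 to 35745445, minus strand) overlaps another protein-coding gene on the same strand, and reads of both cannot be told apart. Several of its exons have the length of a U2AF1 exon, with 88, 67, 50, 99 and 134 nt for the exons that follow exon 1 in transcript U2AF1L4-203, as in exons 2 to 6 of U2AF1. Its rpm were 49.5, 53.2 and 59.6 in the control and 53.1, 52.0 and 47.2 in the SAM68 group (log2 fold change -0.09, SE 0.11, limma adjusted p = 0.793). None of its 19 tested events was called by the quasi-binomial model, by the likelihood ratio test or by limma on logit-scaled PSI, and 1 had an unadjusted p under 0.05.

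The exons of U2AF1L4 were used very unequally. The 67-nt exon, the counterpart in length of exon 3a, was included at 38.4, 41.6 and 37.5% in the controls, against 41.8, 49.6 and 46.0% in the SAM68 libraries. The SAM68 libraries all stood above the controls, the nearest pair at 41.6 and 41.8%, and ∆PSI was 6.67 points (adjusted p = 0.763). It was the only 1 of 34 member events with reads in all libraries whose groups did not overlap, against 6.12% of all such events. A longer form of this exon, with 113 nt, shares its skipping reads and was included at 56.4 ± 5.33% in the control and 63.4 ± 4.96% in the SAM68 group (SD, n = 3; adjusted p = 0.763). The 50-nt exon that follows it (chr19:35744491-35744540) was almost never included, with 1 inclusion read in all 6 libraries against 128 to 171 skipping reads in each. Another 50-nt exon, at chr19:35743296-35743345, was included at 93.7 ± 6.66% in the control and 84.6 ± 26.7% in the SAM68 group (SD, n = 3; adjusted p = 0.763), from a mean of 13.2 reads.

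Exon 4 of U2AF1L4 has 134 nt in the reference transcript U2AF1L4-202 and 76 nt in U2AF1L4-201. The longer form made 10.1, 8.73 and 10.9% in the controls, against 6.18, 11.8 and 8.76% in the SAM68 libraries (∆PSI -1.01 points, adjusted p = 0.911). Its 6 tested retained introns were at most 10.2% unspliced in any library, except for 1 with a mean of 13.3 reads that ran from 4.37 to 80.6%. The 5 alternative 3′ splice site events and the remaining exons did not pass the test, with ∆PSI from -9.97 to 12.4 points, and the widest differences came from events with a mean of 11.2 to 20.5 reads.

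**Figure D5:**
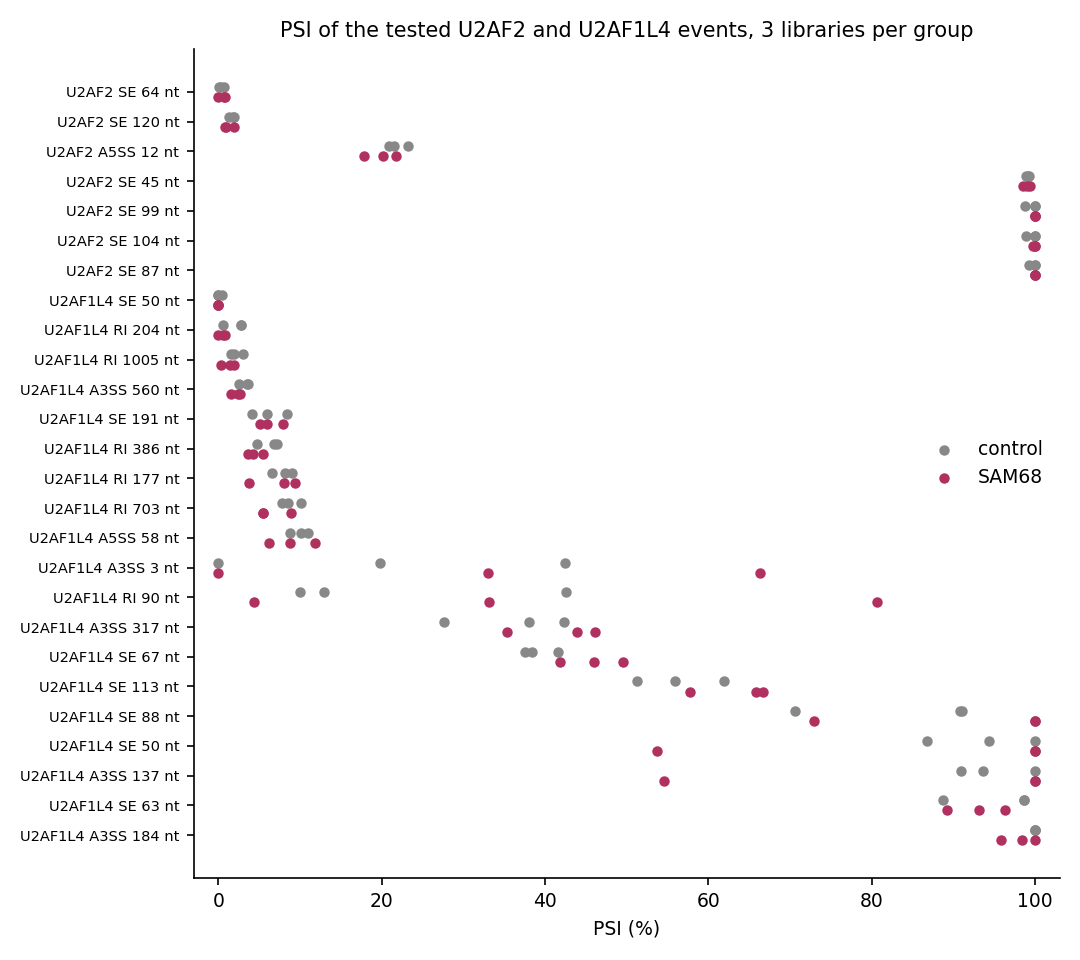
PSI in percent of the 26 tested U2AF2 and U2AF1L4 events, with 3 control (grey) and 3 SAM68 (red) libraries per event; labels give the event type and the length in nt of the part included or left out. The U2AF2 events lie near 0 or 100% except the 12-nt exon end near 20%, and the U2AF1L4 events spread over the scale with overlapping groups in all but the 67-nt exon.

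Factors that act with U2AF at the 3′ splice site and branch point were examined as a list of 28 genes. Of these, 25 had tested events, 183 in all, and none was called by the quasi-binomial model in either direction, with 6 events at an unadjusted p under 0.05. Over all tested events 0.0256% were called and 3.68% had an unadjusted p under 0.05. The likelihood ratio test, which called 2.04% of all events, called 1 of the 183, an alternative 3′ splice site of RBM39 (∆PSI -15.8 points), which had an adjusted p of 0.840 in the quasi-binomial model. The median absolute ∆PSI was 0.607 points, against 1.24 over all tested events. In reads, none of 25 genes was called by limma (0.0493% of 10146 genes), none had an unadjusted p under 0.05 and none was called by limma voom, with log2 fold changes from -0.15 to 0.22. The 3 with the most reads were SF3B6, which contacts the branch point, SF3B2 of the same complex and PUF60, which binds pyrimidine tracts with U2AF. Their log2 fold changes were 0.02 for SF3B6, 0.08 for SF3B2 and 0.10 for PUF60.

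Other genes of chromosome 21 with a copy on the short arm were looked up for the same pattern. CBS, the cystathionine beta-synthase gene, had 141, 19 and 7 reads in the controls, against 6, 69 and 4 in the SAM68 libraries at its most read event. SMIM11A had 6, 16 and 3 reads in the control and 26, 5 and 20 in the SAM68 libraries. Both varied widely within each group. The order of libraries was not that of U2AF1 for either gene. SMIM11, SIK1, CRYAA, KCNE1 and the copies CBSL, SIK1B, SMIM11B, CRYAA2 and KCNE1B were not analysed here, as the tables list no event under these symbols.

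By pattern over the 6 libraries, the genes most like each member on log2 of rpm plus 0.5 were sought among 7920 others. For U2AF1 they were TAF1B (Pearson r = 0.978), SLC25A28 (0.976) and REEP5 (0.961). For U2AF1L5 they were MOK (0.991), PRKRIP1 (0.987) and TSTD1 (0.982), whose reads moved far less, with MOK between 274 and 323. For U2AF1L4 they were MMS19 (0.982), GTF3C2 (0.980) and RNPEPL1 (0.973), and for U2AF2 NDUFS8 (0.977), TMEM129 (0.977) and GSTK1 (0.975). With 6 libraries and 7920 genes, values of this size are a description of these libraries, which share depth within each.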

How the data were processed

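The authors filtered and trimmed paired-end reads (CASAVA 1.4 and fastp 0.20.0 per the labels), mapped them with HISAT2 2.1.0 (GRCh38, no alternate contigs) and ran rMATS, whose version is not given in the sources used here. The deposited tables hold raw counts of junction reads for the inclusion and skipping form as lists of 3 libraries, inclusion levels (fractions), form lengths, and the authors' own p-values, FDR and level differences, which were not used. Reads that fit both copies equally are handled by the aligner and by rMATS before the counts are made. How they were handled is not given in the sources used here.

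A spreadsheet had regrouped digits in 275 lists of alternative 3′ splice sites. Of these events, 163 were recovered and 112 left out, none of them a member, and 78224 events were read. Events averaging 10 reads or more entered a quasi-binomial model (R 4.3.3, limma 3.58.1 squeezeVar, dispersion prior from events with at least 30 reads of each form, F test, Benjamini-Hochberg within each type). Gene reads were those of the event with the most reads, scaled to rpm of 10146 genes, and tested with limma (trend) on log2(rpm + 0.5), so fold changes of low values are understated. A count model had been planned for this test. The call of a gene needed an adjusted p under 0.05 and a log2 fold change of 1 or more in size. P-values of the quasi-binomial model and limma rest on the spread between these libraries, moderated by the spread shared over events of a type or over genes. For the called U2AF1 events (own dispersions of 27.2 and 49.0) the shared values were far lower, at 2.94 for SE and 2.35 for MXE events. On simulated counts, 181 of 200 events shifted by 0.3 in PSI were called among 66396, with 11 false calls at a simulated dispersion of 2.3. This does not cover the U2AF1 events called here (own dispersions of 27.2 and 49.0). Of genes changed 4-fold among 10146, 200 of 200 were called, with 1 false call. The spread simulated for genes was small and does not cover U2AF1 and U2AF1L5, whose reads scattered widely within each group.

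Copies were matched by exon lengths at a distance of 36608322 to 36608331 nt, which varies with bases inserted in intron 3, and aligned in the GRCh38 sequence with GENCODE 44. Members, lists and tests were chosen with earlier results of these data known. Named were all member events, KHDRBS1, called list genes with at most 3 others of most reads, the 3 genes most like each member, and the chromosome 21 copies. RBM39 was named after its values were seen. The permutation test planned for the copy share was not used, because the genes were chosen for it.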

Additional observations from a re-analysis of the deposited data

How the results depend on the processing

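Over 28 values there were 324 results under other settings, and 277 of them met the following limits. Tested values kept their direction and side of the threshold, counts and ratios stayed within 1.5 times, and mean shares of U2AF1L5 moved by less than 1 SD, which is wide here (41.5 and 56.8 points). The cause of the changes below was not tested, except where fewer libraries or another dispersion enter by construction. The number of member events called, 3, was 0 with each event's own dispersion and 0 with limma on logit-scaled PSI, and 0 to 3 when 1 library was left out (0 without control position 1, 1 without SAM68 position 1 and 1 without SAM68 position 3). Each event's own dispersion and limma on logit-scaled PSI do not re-estimate ∆PSI. With either of them no call was made for -26.5 points (U2AF1 exon 3b between exons 2 and 3a), -21.5 points (exon 3b against 3a) and -13.4 points (U2AF1L5 intron). The same held for -42.6, -41.6 and -10.5 points with the copies summed. No p is given for these 6 values in any setting, since the genes were chosen from these reads. When 1 library was left out, these 6 values ran from -56.8 to -6.76, from -50.4 to 2.11, from -20.2 to -8.61, from -64.6 to -31.2, from -63.6 to -30.0 and from -15.8 to -6.21 points. The sums by other dispersions and with a library left out were chosen after seeing the data, as were the dispersion prior from all events, limma voom, median ratio scaling and the read ratios with a library left out.

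Summing the copies turned the ∆PSI of 3 events, to -42.6 points for U2AF1L5 exon 3b between exons 2 and 3a, 25.7 points for U2AF1 exon 3a between exons 3b and 4 and -10.5 points for the U2AF1 intron. Leaving out 1 library turned uncalled values, to -0.61 and -0.16 points for U2AF1L5 exon 3a (range -0.61 to 29.4), 12.2 points for U2AF1 exon 3a (-35.6 to 12.2), -1.15 points for the U2AF1 intron (-1.15 to 31.7) and 0.36 points for the longer exon 4 of U2AF1L4 (-2.44 to 0.36). The log2 fold change was 3.39 for either copy with the copies summed. With 1 library left out it ran from -4.32 to -0.20 for U2AF1 and from 2.49 to 5.75 for U2AF1L5, the extremes -4.32 and 5.75 without SAM68 position 1. The mean share of U2AF1L5 in the controls was 81.1% from skipping reads only, and with 1 library left out it ran from 11.4 to 48.9% in the controls and from 50.7 to 99.9% in the SAM68 group. Without control position 1, the ratio of mean reads over both copies moved from 1.87 to 5.57 for exon 3b and from 6.74 to 16.7 for both exons. The likelihood ratio test called 1 event of the 3′ splice site list. DESeq2 and edgeR were not run, although the deposited lists could be split into reads per library, as was done for limma. No paired analysis was possible because the lists carry no replicate numbers. With 53 reads over both copies at control position 3, the exon 3b share there is known only within its Wilson interval.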
